A study of Mus musculus with 4 samples.

Results

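IL-10- regulatory T (Treg) cells were taken as the cells that the deposited annotation labels "IL10- Treg". They numbered 1161 of 15621 labelled cells, with 424 of 7155 cells in the cecum and 737 of 8466 in the tumor, or 5.93% and 8.71% of each tissue. The annotation holds 17 labels, all named by the study from the RNA of the same nuclei. Accessibility at single genes or sites therefore had no part in naming these cells. The study did keep only cells that passed limits on ATAC fragments and on enrichment at gene starts. The cells had been sorted as T cells from mouse AKP tumors and from the adjacent normal cecum 4 weeks after transplantation. AKP tumors grow from cancer organoids that lack Apc and Trp53 and are placed in the cecal wall, and both groups came from tumor-bearing mice. The strain, age and number of mice behind these libraries are not given in the sources used here. Each tissue gave 1 ATAC library, in which a transposase cuts open chromatin and each recovered fragment marks an accessible site. A tissue and its library therefore cannot be told apart.

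Treg cells are CD4+ T cells that hold back immune responses and depend on the transcription factor Foxp3. In the gut wall one kind makes IL-10 and often carries RORγt, whereas another carries Helios (encoded by Ikzf2), Gata3 and ST2 (encoded by Il1rl1), the receptor for the epithelial alarm cytokine IL-33. ST2+ Treg cells share part of their gene program with type 2 helper (Th2) cells and are known for tissue repair through the growth factor amphiregulin. The comparisons below asked which open loci of IL-10- Treg cells were held in common with Th2 cells and the other T cell types, and which differed between cecum and tumor.

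The cecum library held 66466111 and the tumor library 96747563 unique fragments, of which 66.2% and 64.3% belonged to labelled cells. IL-10- Treg cells contributed 3000774 cecal and 5805456 tumor fragments, with medians of 5635 and 6477 per cell, inside the range of the other labels. Th2 cells were few, 90 and 58, with 568803 and 438981 fragments. PD1+ CD4 cells numbered 616 in the tumor but only 14 in the cecum and are therefore given in the tumor library alone. Among labelled cells, 84 barcodes occurred in both libraries, and 16 IL-10- Treg barcodes carried some label in the other library. Accessibility is given as fragments per 1000000 fragments of the label (FPM), with a fragment counted once if either end lay in the window. FPM sums the cells of a label, so a low value cannot tell apart fewer open cells from fewer fragments per open cell. With 1 library per tissue no test was possible. All intervals are exact 95% intervals that cover counting error only, and the cells of a library are not replicates. Ratios printed with an interval were taken from the fragments themselves, with nothing added, and calls from FPM with 1 added.

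The 4 genes that mark this label were first compared over all labels (gene span with 5 kb on both sides, mm10). Foxp3, the factor that defines Treg cells, had 97.3 FPM (86.5 to 109) in cecal and 76.0 FPM (69.0 to 83.4) in tumor IL-10- Treg cells. Pairs of values below give cecum first and tumor second. IL-10+ Treg cells had 102 and 79.2 FPM, and the highest other value in either library was 46.4 FPM, in tumor Tfh-like cells. Both Treg labels thus stood apart from the remaining 15 labels at Foxp3, and did not differ from each other beyond their counting intervals. Ikzf2 had 474 FPM (450 to 499) and 436 FPM (419 to 453) in IL-10- Treg cells, the highest of the labels in both libraries. The next were Innate-like T#1 cells with 407 and 394 FPM, while IL-10+ Treg cells had 205 and 235 FPM. Il1rl1 had 124 FPM (112 to 137) and 133 FPM (124 to 143), close to Th2 cells with 119.5 and 169 FPM and above IL-10+ Treg cells with 71.8 and 93.8 FPM. The window of Il1rl1 overlaps that of its neighbour Il18r1, so some of these fragments may lie near Il18r1. Gata3, the master factor of Th2 cells, had 233 FPM (216 to 251) and 208 FPM (197 to 220), below the 353 and 317 FPM of Th2 cells and above the 161 and 170 FPM of IL-10+ Treg cells. Tumor PD1+ CD4 cells had 210.1 FPM at Gata3 and 116 FPM at Il1rl1, so these levels were not particular to the label.

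**Figure D1:**
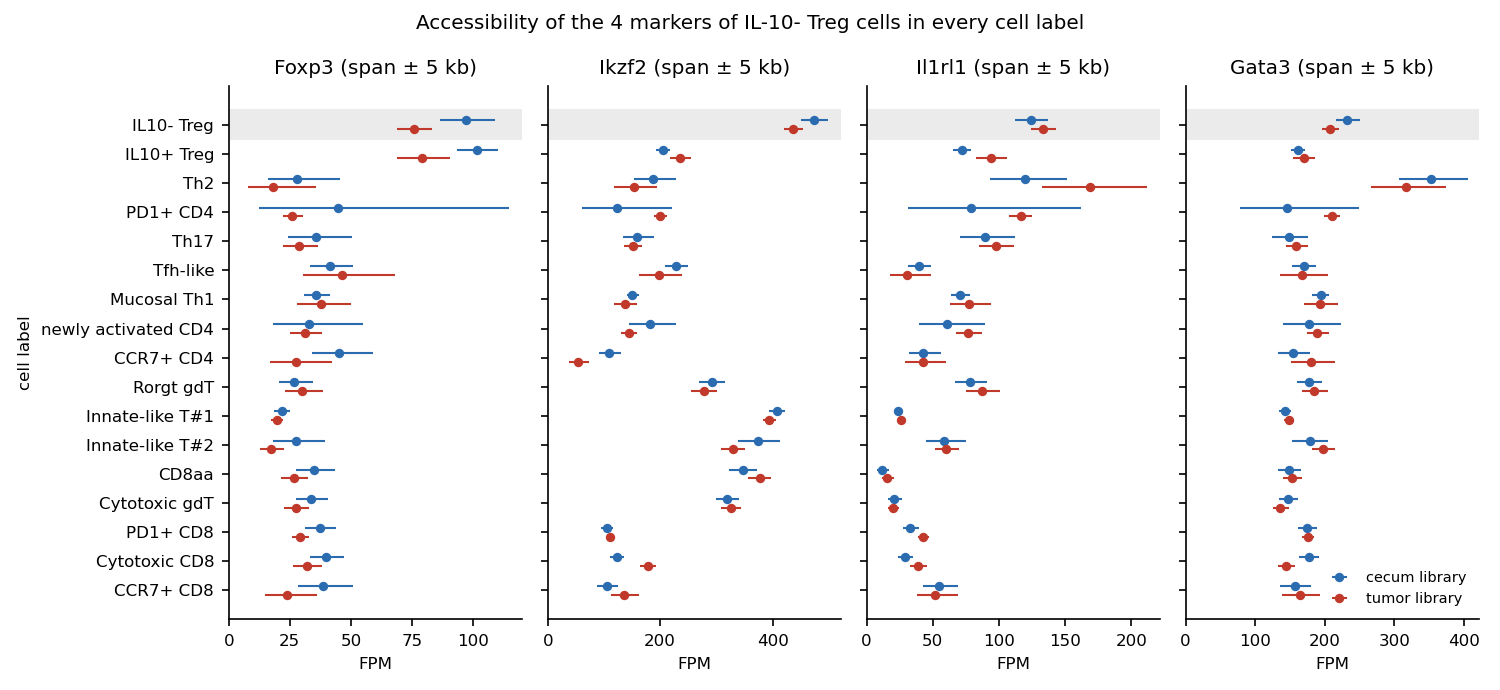
Accessibility of Foxp3, Ikzf2, Il1rl1 and Gata3 (x axes, FPM over the gene span with 5 kb on both sides) in the 17 labels (y axis), as points with 95% Poisson intervals for the cecum (blue) and the tumor library (red). IL-10- Treg cells, shaded, lead at Ikzf2 with 474 and 436 FPM, share the top of Foxp3 with IL-10+ Treg cells, and lie beside Th2 cells at Il1rl1 but below them at Gata3.

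The markers were also counted per cell at equal depth. Among cells thinned to 3000 fragments, 69.0% (63.3 to 74.3%) of 287 cecal and 69.7% (65.6 to 73.5%) of 541 tumor IL-10- Treg cells had a fragment at Ikzf2. The share was 42.2% and 43.8% in IL-10+ Treg cells and 23.8% and 27.7% in PD1+ CD8 cells, which should hold no Treg cells. PD1+ CD8 cells were among the lowest labels at Ikzf2, with 105 and 110 FPM. Innate-like T#1 cells, with 407 and 394 FPM, and CD8aa cells, with 347 and 377 FPM, were not counted per cell. The gap to PD1+ CD8 cells therefore does not show a share particular to Treg cells. Without thinning the shares in IL-10- Treg cells were 74.1% and 75.7%. Thinned to a lower depth they were well below these, as given further on, so the share depends on depth. At Foxp3 the shares were 20.6% (16.0 to 25.7%) and 19.4% (16.2 to 23.0%), against 10.3% and 7.86% in PD1+ CD8 cells, at median depths of 5322 and 6360 fragments in the latter. Cd8a, which encodes a coreceptor of CD8 T cells, had a fragment in 0.348% and 0.555% of IL-10- Treg cells and in 27.6% and 23.9% of PD1+ CD8 cells. The thinning left out 137 cecal and 196 tumor IL-10- Treg cells of lower depth.

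To find the loci of IL-10- Treg cells, each gene was set against the equal-weight mean of the 14 non-Treg labels with at least 50 cells in both libraries. A gene was called when its log2 ratio, with 1 FPM added, was at least 1 or at most -1 in both libraries. Of 17352 genes tested, 225 were higher (1.3% of the genes tested) at 210 separate loci and 203 were lower (1.17%). The medians over all genes tested were -0.03 and -0.04. IL-10- Treg cells had the highest level of the 16 labels other than PD1+ CD4 in both libraries at 112 of the 225 genes. Of the 4 markers, Foxp3 (log2 ratio 1.48 and 1.40 in cecum and tumor), Ikzf2 (1.10 and 1.04) and Il1rl1 (1.23 and 1.15) were called higher, and Gata3 (0.38 and 0.21) was not. With windows within 1 kb of the gene ends, Foxp3 was the only marker called, at 2.15 and 2.33, whereas Ikzf2 gave 0.44 and 0.07 and Il1rl1 0.14 and 0.40. With those windows 125 genes were higher and 130 lower, and with 5 FPM added in place of 1 the counts were 107 and 94.

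Core Treg genes lay past the fold above the non-Treg mean in part, which does not say whether the others were open. Of 14 genes on this list, 5 were higher (Foxp3, Ikzf2, Tnfrsf4, Lrrc32 and Gpr83), where 1.3% of all genes were. None was lower, and the median log2 ratios were 0.49 and 0.55. Lrrc32, which encodes the latent TGF-β carrier GARP, had 66.6 and 70.3 FPM, against non-Treg means of 10.9 and 13.3 FPM. Tnfrsf4, encoding the costimulatory receptor OX40, had 81.3 and 84.7 FPM against 37.7 and 35.4 FPM. The IL-2 receptor gene Il2ra had 189 and 183 FPM against 147.4 and 149.5 FPM and was not called, and neither was Ctla4, encoding an inhibitory receptor (109.6 and 97.3 FPM against 76.5 and 75.6 FPM).

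The list of ST2+ tissue Treg genes held a larger part of calls, 6 of 12 (Il1rl1, Klrg1, Areg, Pparg, Penk and Ccr8), with medians of 1.04 and 0.98. Over all genes 1.3% were higher. By the 2-fold rule against Th2 cells, none of the 12 was higher and Pparg was lower, where 2.89% and 1.08% of all genes were. The summed level of the list was 2037 and 2005 FPM, below the highest other label with 2305 and 2121 FPM. All lists were chosen with earlier results of these data known, and they overlap. Il1rl1, Ccr8 and Pparg are on the Th2 list as well, and Ccr8 is on that of activated tumor Treg cells, so the lists do not count separate loci. Areg, which encodes amphiregulin, had 50.7 and 48.9 FPM against means of 9.37 and 10.3 FPM. Its level was the highest of all labels in both libraries, with Th2 cells next at 40.4 and 43.3 FPM. Ccr8, a chemokine receptor gene of tissue Treg and Th2 cells, had 80.0 and 68.6 FPM against 21.3 and 22.4 FPM. Pparg, a lipid-sensing nuclear receptor, had 39.99 and 55.3 FPM against 18.3 and 20.02 FPM. Klrg1, encoding an inhibitory receptor for cadherins, had 72.6 and 68.9 FPM, with 11.7 and 26.4 FPM in IL-10+ Treg cells. The opioid precursor gene Penk had 15.0 and 12.1 FPM against 0.993 and 2.46 FPM. Rora, encoding a nuclear receptor of type 2 and tissue lymphocytes, had 902 and 939 FPM against 536 and 535 FPM, short of the fold.

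On the higher side the remaining lists gave fewer calls. Genes of activated tumor Treg cells had 3 of 15 higher (Ccr8, Tnfrsf4 and the decoy IL-1 receptor gene Il1r2), and TGF-β genes had 2 of 9 (Itgb8 and Lrrc32). None of 14 genes of the T cell receptor response and the NR4A family was called, for example Nr4a1 with 189 and 179 FPM against 179 and 185 FPM. No member of the lists for naive, B, myeloid or epithelial cells was called. Over all genes tested 1.3% were higher and 1.17% lower, and at those shares lists this short would hold few or no calls. The lack of calls in these lists and in that of the T cell receptor response is therefore not read as a result.

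Calls on the lower side, made at 1.17% of all genes, fell in lists of other lineages. Of 9 CD8 and cytotoxic genes, 6 were lower (Cd8a, Cd8b1, Prf1, Nkg7, Klrd1 and Ccl4), with medians of -2.20 and -1.45. Cd8a had 4.00 and 4.31 FPM against 37.7 and 36.4 FPM. Of 10 type 17 genes, 5 were lower (Il17a, Il17f, Il22, Il23r and Il1r1) and the chemokine receptor gene Ccr6 was higher, with 54.7 and 58.6 FPM against 20.5 and 23.9 FPM. Il17a had 1.67 and 1.21 FPM, against 11.4 and 13.0 FPM in the mean and 23.5 and 13.6 FPM in IL-10+ Treg cells. Of 10 type 1 genes, Ifng and Il12rb2 were lower, with 7.66 and 6.37 FPM against 25.2 and 26.7 FPM at Ifng. Of 6 γδ and innate-like T cell genes, Trdc, Zbtb16 and Sox13 were lower. Of 7 follicular helper genes Il21 was lower, and the list's medians were 0.47 and 0.08. Among genes off the lists, Bend4, Tspan9, Kcnk1 and Cd93 were in the 8 lowest, and Bend4 had 8.998 and 9.65 FPM against 63.0 and 62.3 FPM. The killer cell lectin-like receptor genes, counted after their values were seen, had 17 of 27 tested members lower at 14 loci, with Klrg1 the only one higher. They are near-identical copies in part, so fragments may be split between them.

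The question of sharing was asked next. A label was said to share a gene when the log2 ratio of IL-10- Treg cells over it was below 1 in both libraries. The reference labels, Th2 cells among them, were in the mean that chose the higher genes, and IL-10+ Treg and PD1+ CD4 cells were not. A gene open in a reference label was therefore less likely to be chosen. The shares of reference labels are thus not on equal terms with those of IL-10+ Treg and PD1+ CD4 cells. The same holds for the tiles and promoters below. Of the 225 higher genes, IL-10+ Treg cells shared 100 (44.4%), Th2 cells 59 (26.2%), Rorgt gdT cells 57 (25.3%), Tfh-like cells 47 (20.9%) and Th17 cells 42 (18.7%). The other 10 labels compared in both libraries shared 8 to 20 genes each. In the tumor library alone, PD1+ CD4 cells shared 135, as many as IL-10+ Treg cells, with Rorgt gdT cells at 99 and Th2 cells at 90. By the labels that shared them, 50 genes were shared with no label, 18 only with IL-10+ Treg cells, 15 only with Th2 cells, 4 with these alone (Areg, Dst, Ksr2 and Oit3) and 138 with some other label too. Within these classes, 30 of the 50, 8 of the 18, 9 of the 15 and 2 of the 4 genes were shared with PD1+ CD4 cells in the tumor, which the class names leave aside.

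The other labels were put through the same call, each against the non-Treg mean without itself. IL-10+ Treg cells had 132 genes higher, of which 62 were also higher in IL-10- Treg cells, or 47.0% of the former and 27.6% of the latter. Rorgt gdT cells had 32 of 350 in common, Th2 cells 30 of 198, Th17 cells 25 of 153 and Tfh-like cells 24 of 129. These labels were in the mean that chose the genes of IL-10- Treg cells, and IL-10+ Treg cells were not. Across all genes, at equal depth, the level of IL-10- Treg cells correlated best with that of IL-10+ Treg cells (Pearson r = 0.91 in both libraries over 17352 genes). The other labels lay between 0.87 and 0.90. These values describe labels that share a library and genes that are not independent.

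**Figure D2:**
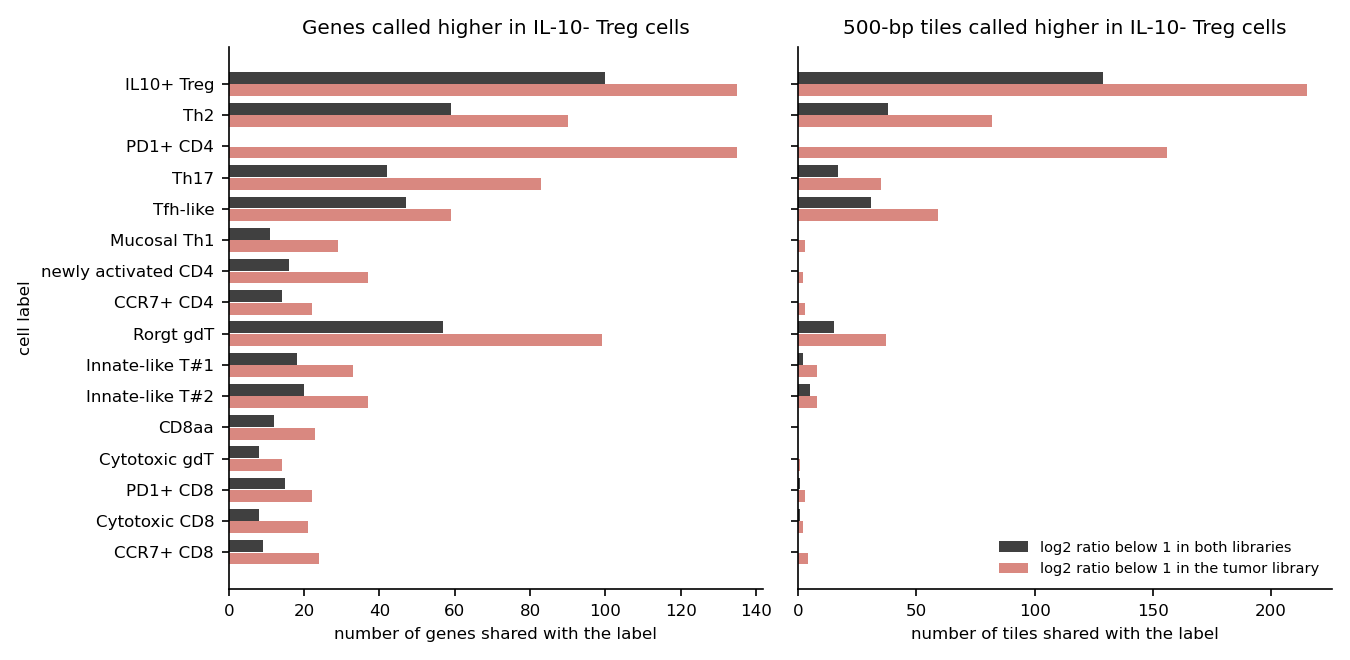
Number of higher genes (left, 2-fold limit) and higher 500-bp tiles (right, 4-fold limit) of IL-10- Treg cells that each label (y axis) shares, in both libraries (dark bars) or in the tumor library (red bars). IL-10+ Treg cells share 100 genes and 129 tiles and Th2 cells 59 genes and 38 tiles in both libraries, and PD1+ CD4 cells, shown for the tumor alone, 135 genes and 156 tiles. IL-10+ Treg and PD1+ CD4 cells were outside the mean that chose these genes and tiles, and the other labels were in it.

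Loci shared with no label were led by a pair of neighbours on chromosome 12. Macc1 (chr12:119390398-119466934), a gene linked to invasion of colon cancer cells, had 34.0 FPM from 102 fragments and 35.1 FPM from 204 fragments. The non-Treg means were 2.25 and 3.26 FPM, IL-10+ Treg cells had 3.503 and 2.57 FPM, and the highest value of any other label was 7.72 FPM. Itgb8 (chr12:119162803-119238276), encoding the integrin chain that activates latent TGF-β, had 115 and 123 FPM against means of 14.4 and 16.3 FPM. It was at 39.9 and 41.4 FPM in IL-10+ Treg cells, 66.1 and 46.4 FPM in Tfh-like cells, 17.6 and 6.83 FPM in Th2 cells and 78.3 FPM in tumor PD1+ CD4 cells. The other leading genes of this class were Gad1, encoding an enzyme that makes the transmitter GABA (48.7 and 62.5 FPM against 7.76 and 9.12 FPM), A1cf, a cofactor of RNA editing (56.0 and 54.4 FPM against 8.65 and 9.46 FPM), and Acot12, Ceacam15, Dscaml1 and Gm3248. At Acot12 and Ceacam15 tumor PD1+ CD4 cells came close, with 53.6 FPM against 54.9 FPM and with 24.4 FPM against 29.3 FPM. Shared with no label does not mean closed elsewhere. Dscaml1 had 75.6 and 136 FPM in IL-10- Treg cells, and 28.1 and 77.5 FPM in Th2 cells. Dscaml1 and Acot12 were also higher in Th2 cells than in the other non-Treg labels, by the count given below.

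Genes shared only with IL-10+ Treg cells comprised Foxp3 itself and Lrrc32. Also among them were Ereg, encoding the growth factor epiregulin (14.0 and 11.7 FPM, against 11.4 and 12.5 FPM in IL-10+ Treg cells and 1.29 and 2.06 FPM in the mean), H1f8, an oocyte linker histone gene (33.0 and 35.7 FPM against means of 3.55 and 4.10 FPM), and Nckap5. Nckap5 had 232 and 158 FPM in IL-10- Treg cells and 254 and 283 FPM in IL-10+ Treg cells. Mybph had 14.3 and 37.2 FPM against 19.8 and 45.1 FPM, and its window overlaps that of Adora1, so these counts are not separate. Ereg lies on chromosome 5 beside Areg and Epgn, which encode growth factors of the same family. All 3 were higher, and the remaining member of the cluster, Btc, was not, a count made after the values were seen.

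Genes shared only with Th2 cells were led by Tmprss11e, a membrane protease gene, with 38.0 and 31.5 FPM, against 21.1 and 20.5 FPM in Th2 and 9.81 and 5.87 FPM in IL-10+ Treg cells. Prox1, a homeobox factor known from lymphatic endothelium, had 19.7 and 20.5 FPM, against 12.3 and 11.4 FPM in Th2 cells and 2.10 and 0.367 FPM in IL-10+ Treg cells. Newly activated CD4 cells had 14.1 and 4.003 FPM there. Ctsh (chr9:90054267-90076095), encoding the lysosomal protease cathepsin H, had 59.0 and 51.2 FPM, against 61.5 and 54.7 FPM in Th2 and 8.76 and 10.998 FPM in IL-10+ Treg cells. IL-10- Treg and Th2 cells were thus level at Ctsh, and IL-10+ Treg cells lay near the non-Treg mean of 10.9 and 11.6 FPM. Ccr8 had 59.8 and 59.2 FPM in Th2 and 27.3 and 38.5 FPM in IL-10+ Treg cells, and 74.7 FPM in tumor PD1+ CD4 cells. Cx3cl1, the fractalkine gene, had 29.7 and 37.6 FPM, with 17.6 and 25.1 FPM in Th2, 18.5 and 16.5 FPM in Rorgt gdT and 74.7 FPM in tumor PD1+ CD4 cells. Mid2, Nid2 and Six2 completed the 8 leading genes. The Th2 values rested on 12 and 9 fragments at Tmprss11e, 7 and 5 at Prox1 and 10 and 11 at Cx3cl1. At each, the interval of the log2 ratio over Th2 cells reached past the sharing limit of 1, as at Tmprss11e (-0.01 to 1.84 and -0.34 to 1.77). Counting error therefore leaves their place in this class unsettled.

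Among genes shared with some other label too, Ednrb, an endothelin receptor gene, had 20.7 and 35.1 FPM against means of 2.74 and 3.77 FPM. Its only sharing label was Innate-like T#2, with 10.4 and 17.6 FPM, while IL-10+ Treg and Th2 cells were at or below 2.93 FPM. Cc2d2a was shared with IL-10+ Treg and Rorgt gdT cells, at 110.3 and 56.8 FPM in IL-10- Treg cells, and Tff1, encoding a trefoil peptide of mucosa, with IL-10+ Treg and Th17 cells, at 21.7 and 46.7 FPM.

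**Figure D3:**
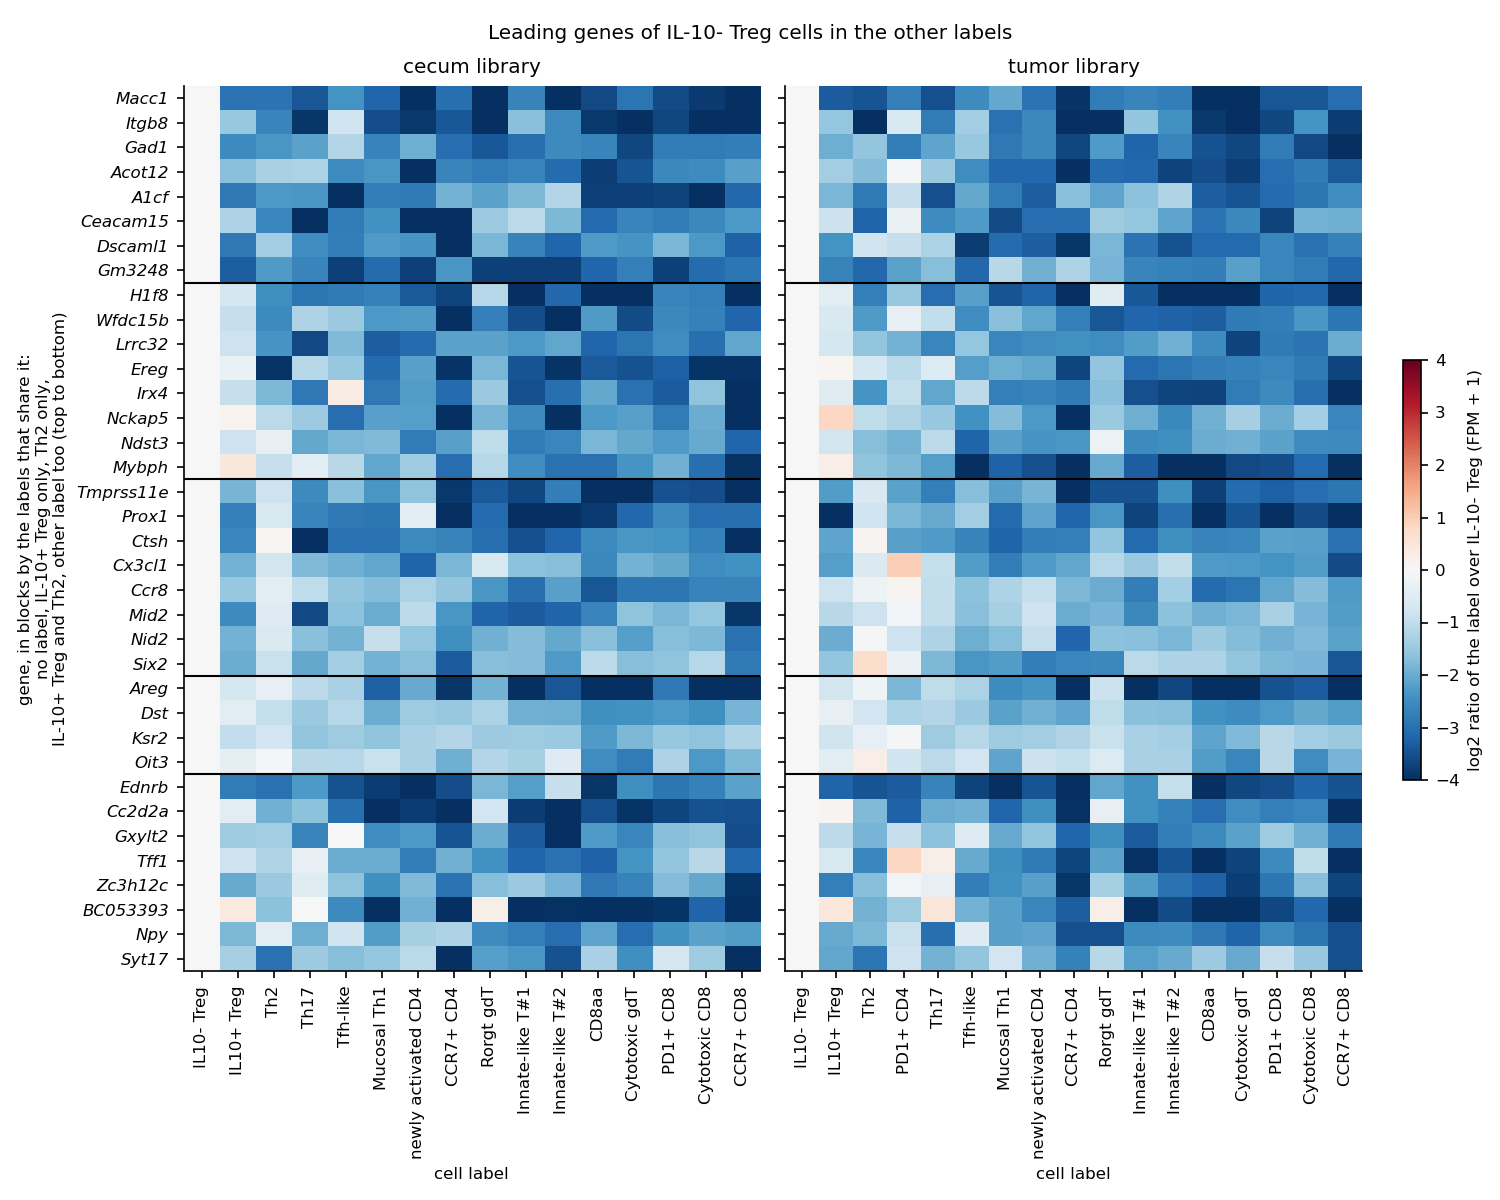
The leading higher genes of IL-10- Treg cells (rows) in every label (columns) of the cecum (left) and tumor library (right), in blocks by the labels that share them; colour gives the log2 ratio of the label over IL-10- Treg cells with 1 FPM added. Rows of the first block, from Macc1 to Gm3248, are blue in most labels of both libraries, the second block is pale for IL-10+ Treg and the third for Th2 cells.

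The overlap with Th2 cells was also counted with Th2 cells left out of the reference. Against the other 13 non-Treg labels, 262 genes were higher in IL-10- Treg and 198 in Th2 cells, with 48 in common, or 18.3% and 24.2% of each. Of the 48, 7 were higher in IL-10+ Treg cells as well and 41 were not. IL-10+ Treg cells had 69 of the 262 genes higher, and 136 of all 17352 genes. By the smallest of the 4 ratios, the list was led by Ctsh, Areg, Tmprss11e and Prox1, followed by Radx, Dipk1c and Pparg. This list does not set IL-10- Treg against Th2 cells directly. It therefore also holds genes of the class shared with no label, among them Dipk1c, Dscaml1 and Acot12. Radx had 23.0 and 10.5 FPM in IL-10- Treg, 26.4 and 34.2 FPM in Th2 and 1.93 and 1.83 FPM in IL-10+ Treg cells. Pparg was open in both but had 127 and 125 FPM in Th2 cells, with log2 ratios of -1.66 and -1.18 of IL-10- Treg over Th2 cells. Il1rl1, Il1r2, Ccr8 and Tnfrsf4 were also among the 48.

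Set directly against Th2 cells, 501 genes were higher in IL-10- Treg cells (2.89% of the genes tested) and 187 lower (1.08%). Counting intervals left out 0 in both libraries at 144 and 104 of them. Il4 and Il13, effector cytokine genes of Th2 cells, were on the lower side. Il4 had 15.7 and 9.47 FPM in IL-10- Treg cells, against 77.4 and 47.8 FPM in Th2 cells, with log2 ratios of -2.30 (-2.93 to -1.68) and -2.34 (-3.09 to -1.54). Il13 had 29.7 and 14.3 FPM against 87.9 and 82.0 FPM. Il5 had 16.0 and 11.2 FPM against 29.9 and 29.6 FPM and was not called. Of 16 genes of the Th2 program, 4 were higher than the non-Treg mean (Il1rl1, Ccr8, Pparg and Bhlhe41), where 1.3% of all genes were. Against Th2 cells 4 were lower (Il4, Il13, the IL-25 receptor gene Il17rb and Pparg) and Bhlhe41 was higher. Il2, encoding the growth factor that T cells make, had 17.995 and 12.2 FPM against 84.4 and 63.8 FPM. The serotonin receptor gene Htr1b had 4.67 and 3.45 FPM against 38.7 and 29.6 FPM, and Nxpe4 14.3 and 16.0 FPM against 89.7 and 109 FPM. Il17a, with 5 and 7 fragments, was lower than in Th2 cells too, which had 11 and 10 fragments.

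On the higher side, Ednrb, Syt17 and Macc1 had the largest ratios among genes with a Th2 fragment in both libraries. For Ednrb the log2 ratio was 3.55 (1.02 to 8.88) and 3.95 (1.45 to 9.26), each from 1 Th2 fragment. At Itgb8 it was 2.71 (1.82 to 3.79) and 4.17 (2.61 to 6.45), from 10 and 3 Th2 fragments. Afp, Siglec15, Gstt4, Psg17 and Atp8b5, also among the 8 highest, had no Th2 fragment in either library, and 20 to 26 cecal and 37 to 54 tumor fragments in IL-10- Treg cells. They were not called against the non-Treg mean. Th2 cells are few, and without the 1 cell of each label that held most fragments over a gene the higher count was 1211 and the lower 90. With 5 FPM added the counts were 135 and 75.

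Sites were then located in tiles of 500 bases. Of 138404 tiles tested, 395 were at least 4-fold higher in both libraries (0.285%), in 321 regions, and 241 lower (0.174%). A larger minimum of fragments per tile gave far fewer higher tiles, as given further on. At the 2-fold limit used for genes there were 2969 higher and 5577 lower tiles, with IL-10+ Treg cells sharing 54.6% and Th2 cells 24.1% of the higher ones, so the shares that follow hold for the 4-fold limit. Tiles within 1 kb of a listed gene start made up 5.82% of the higher and 26.2% of the tested tiles, and tiles outside gene spans 46.1% and 29.4%. IL-10+ Treg cells shared 129 (32.7%), Th2 cells 38 (9.62%), Tfh-like cells 31, Th17 cells 17 and Rorgt gdT cells 15. The remaining labels compared in both libraries shared at most 5. In the tumor alone, IL-10+ Treg cells shared 215 and PD1+ CD4 cells 156. As for genes, IL-10+ Treg and PD1+ CD4 cells were outside the mean that chose the tiles, and the other labels compared were in it. No label shared 202 tiles, IL-10+ Treg cells alone 92 and Th2 cells alone 33. Of these, 69, 40 and 13 were shared with PD1+ CD4 cells in the tumor. Correlations over tiles at equal depth were again highest with IL-10+ Treg cells (Pearson r = 0.67 in both libraries). Th2 cells had 0.65 in both, next in order in the cecum but after newly activated CD4 cells in the tumor, and Tfh-like, Th17 and newly activated CD4 cells lay between 0.63 and 0.65.

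At Foxp3 the tile chrX:7584001-7584500, inside the gene and 4.57 kb from its listed start, had 25.99 and 17.1 FPM. IL-10+ Treg cells had 29.2 and 20.5 FPM there, PD1+ CD4 cells 0.977 FPM and the non-Treg mean 0.968 and 0.735 FPM. Th2 cells had no fragment, which allows up to 5.27 and 6.83 FPM. A site 5.4 kb before the start, by contrast, was open in every group shown, with 40.3 and 36.2 FPM in IL-10- Treg cells and 34.7 and 36.1 FPM in the non-Treg mean.

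The chromosome 12 loci differed in which sites were shared. The tile chr12:119388001-119388500 lies 1898 bases outside the Macc1 span and at -150.0 kb from the Itgb8 start. It had 16.7 and 12.1 FPM in IL-10- Treg cells, 0.3503 and 0.367 FPM in IL-10+ Treg cells, 0.977 FPM in tumor PD1+ CD4 cells and no fragment in Th2 cells. The tile at the Itgb8 start had 21.7 and 21.9 FPM, and PD1+ CD4 cells had 19.9 FPM there, IL-10+ Treg cells 6.48 and 7.33 FPM. A tile inside Itgb8, 33.5 kb from the start, had 16.7 and 16.5 FPM, with 5.08 and 4.399 FPM in IL-10+ Treg and 7.16 FPM in PD1+ CD4 cells. PD1+ CD4 cells thus shared the start of Itgb8 but not the distant tile.

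Near Areg, the start tile had 31.7 and 31.0 FPM in IL-10- Treg cells, 31.6 and 25.1 FPM in Th2 and 19.6 and 17.6 FPM in IL-10+ Treg cells. The tile at -15.3 kb had 21.0 and 11.9 FPM in IL-10- Treg and 24.6 and 13.7 FPM in Th2 cells, but 3.15 and 6.60 FPM in IL-10+ Treg cells and 0.488 FPM in PD1+ CD4 cells. The tile at -12.8 kb had 10.997 and 10.3 FPM in IL-10- Treg cells, 3.52 and 11.4 FPM in Th2 and 2.45 and 2.93 FPM in IL-10+ Treg cells. The gap between the Treg labels was wider at -15.3 kb than at the start in the cecum but not in the tumor.

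Il1rl1 showed sites of each kind, described here after the tracks had been seen. Tiles 20.9 and 22.4 kb from the listed span start had 8.33 and 7.41 FPM and 5.67 and 7.58 FPM in IL-10- Treg cells. Th2 cells had 3.52 and 2.28 FPM at the former and 10.5 and 20.5 FPM at the latter, while IL-10+ Treg cells had at most 0.701 FPM and PD1+ CD4 cells at most 1.47 FPM. At 39.9 kb the order was turned, with 5.998 and 8.44 FPM in IL-10- Treg cells, 15.1 and 13.2 FPM in IL-10+ Treg and 23.6 FPM in PD1+ CD4 cells.

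**Figure D4:**
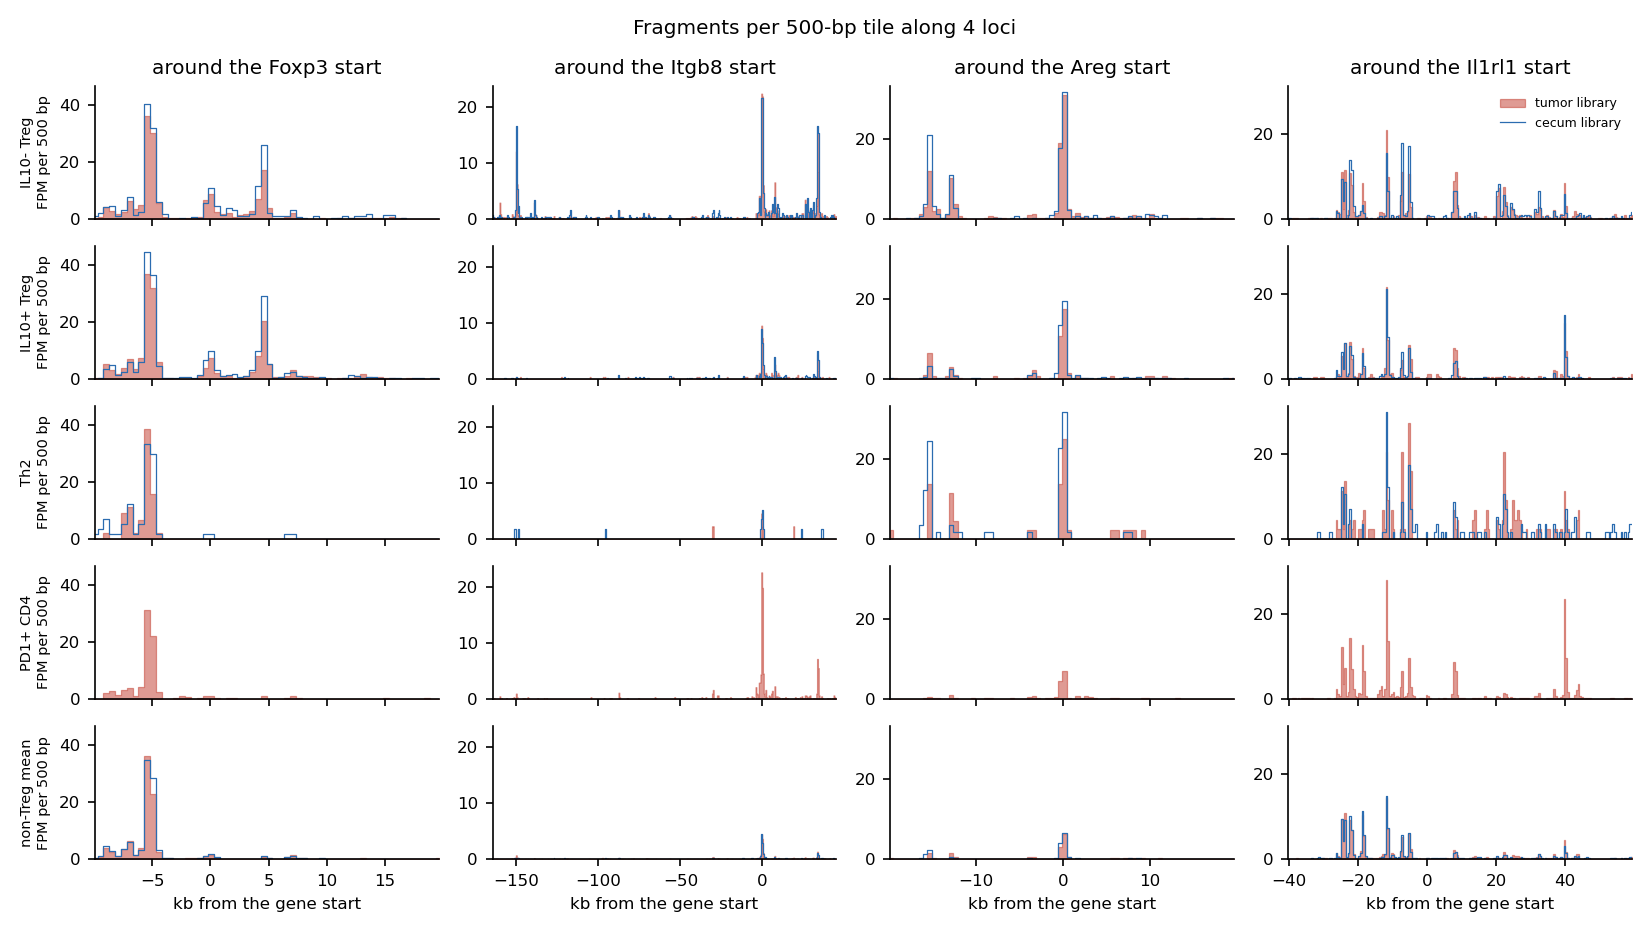
FPM per 500-bp tile (y axes) by distance from the listed gene start in kb (x axes) at Foxp3, Itgb8, Areg and Il1rl1, for IL-10- Treg, IL-10+ Treg, Th2 and PD1+ CD4 cells and the non-Treg mean (rows), in the cecum (blue line) and tumor library (red fill; PD1+ CD4 cells in the tumor alone). The Foxp3 tile at 4.57 kb is seen in both Treg rows, the tile at -150.0 kb of Itgb8 in the IL-10- Treg row, and the Areg tile at -15.3 kb is tallest in the IL-10- Treg and Th2 rows.

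Although the Gata3 span was not called, 3 tiles whose nearest gene in the table is Gata3 were higher and shared with Th2 cells alone. They lie 488578 to 715078 bases outside its span, and nearness does not show which gene they act on. The tile chr2:9141501-9142000 had 23.3 and 24.1 FPM in IL-10- Treg, 28.1 and 20.5 FPM in Th2 and 0.876 and 2.93 FPM in IL-10+ Treg cells. The tile chr2:9368001-9368500 had 25.3 and 31.4 FPM, with 45.7 and 47.8 FPM in Th2, 20.02 FPM in tumor PD1+ CD4 and 0.701 and 1.10 FPM in IL-10+ Treg cells. Other tiles of this class lay near Smarca2, Nup35, Ksr2, Rora, Mthfd1l and Ppfibp2. In Ctsh, the tile chr9:90071001-90071500 had 16.0 and 10.7 FPM in IL-10- Treg and 26.4 and 13.7 FPM in Th2 cells, with 0.175 FPM and no fragment in IL-10+ Treg cells.

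Of all tiles, chr9:102502001-102502500, outside the gene Ky, had the largest ratio, with 54.3 and 35.1 FPM against means of 1.08 and 0.466 FPM. IL-10+ Treg cells had 20.3 and 19.1 FPM and Th2 cells 1.76 and 2.28 FPM there. Tiles shared with no label followed near Nhej1, Col18a1, Mapkbp1, Smarcd3, Spin1 and Zc3h12c, the last with 15.3 and 11.7 FPM against 0.0723 and 0.198 FPM. In Ikzf2 the tile chr1:69599501-69600000 had 8.66 and 8.96 FPM in IL-10- Treg cells, against 1.01 and 0.869 FPM in the mean, and 1.75 FPM and no fragment in IL-10+ Treg cells.

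Promoters were counted within 500 bases of each listed start. Of 10980 tested, 76 were higher (0.692%) and 97 lower (0.883%) by the 2-fold rule. Of the 76, 55 were shared with some other label too, 7 only with IL-10+ Treg cells, 3 only with Th2 cells and 11 with no label. In the tumor, PD1+ CD4 cells shared 3 of the 7, 1 of the 3 and 6 of the 11. RefSeq gives the promoters below on GRCm38.p6, the build of mm10, from 250 bases before to 50 after the start, 5′ to 3′ on the gene's strand. They are shown because they cover promoters shared with IL-10+ Treg cells, with Th2 cells, with no label or with more labels, and that of Il1rl1. Ky, which encodes a muscle peptidase (chr9:102505888-102506187, plus strand), had the largest ratio, with 23.0 and 18.3 FPM in IL-10- Treg, 16.6 and 20.5 FPM in IL-10+ Treg cells and none in Th2 cells. Foxp3 (chrX:7579426-7579725, plus strand) had 13.3 and 10.7 FPM, and 12.6 and 8.80 FPM in IL-10+ Treg cells. Itgb8 (chr12:119238227-119238526, minus strand) had 30.3 and 31.9 FPM, and 29.1 FPM in tumor PD1+ CD4 cells. Slc25a25, a mitochondrial carrier gene (chr2:32424017-32424316, minus strand), had 33.3 and 37.4 FPM, with 24.6 and 34.2 FPM in Th2 and 5.60 and 5.87 FPM in IL-10+ Treg cells. Areg (chr5:91139349-91139648, plus strand) had 39.7 and 37.7 FPM, with 36.9 and 29.6 FPM in Th2 and 24.2 and 20.9 FPM in IL-10+ Treg cells. Ccr8 (chr9:120091883-120092182, plus strand) had 21.7 and 21.2 FPM, with 17.6 and 22.8 FPM in Th2 and 27.7 FPM in tumor PD1+ CD4 cells. Il1rl1 (chr1:40429320-40429619, plus strand) was not called, with 4.33 and 3.96 FPM, 1.76 and 9.11 FPM in Th2 cells, and none and 0.733 FPM in IL-10+ Treg cells. A further start is listed for both Foxp3 and Il1rl1 and is not shown. Capitals mark GATAA on either strand, the core read by GATA factors, in Foxp3, Ccr8 and Il1rl1, and the other 4 hold none of the letters searched.
Ky: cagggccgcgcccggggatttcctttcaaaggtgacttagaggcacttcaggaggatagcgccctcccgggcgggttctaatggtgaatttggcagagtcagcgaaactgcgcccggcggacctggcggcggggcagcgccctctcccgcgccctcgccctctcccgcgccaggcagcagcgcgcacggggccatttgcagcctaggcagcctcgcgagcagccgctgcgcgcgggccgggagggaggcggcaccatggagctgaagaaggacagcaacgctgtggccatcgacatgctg
Foxp3: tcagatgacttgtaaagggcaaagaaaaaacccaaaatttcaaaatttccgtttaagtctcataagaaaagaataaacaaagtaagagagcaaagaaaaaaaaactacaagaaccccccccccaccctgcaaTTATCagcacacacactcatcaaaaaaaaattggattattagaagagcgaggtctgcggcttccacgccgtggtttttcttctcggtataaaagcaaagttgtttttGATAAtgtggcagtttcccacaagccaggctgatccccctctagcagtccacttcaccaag
Itgb8: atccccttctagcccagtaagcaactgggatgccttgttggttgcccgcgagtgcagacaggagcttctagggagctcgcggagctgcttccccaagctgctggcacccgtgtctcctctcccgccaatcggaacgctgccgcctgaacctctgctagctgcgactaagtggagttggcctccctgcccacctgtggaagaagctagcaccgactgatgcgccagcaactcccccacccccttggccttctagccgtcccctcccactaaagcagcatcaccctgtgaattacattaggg
Slc25a25: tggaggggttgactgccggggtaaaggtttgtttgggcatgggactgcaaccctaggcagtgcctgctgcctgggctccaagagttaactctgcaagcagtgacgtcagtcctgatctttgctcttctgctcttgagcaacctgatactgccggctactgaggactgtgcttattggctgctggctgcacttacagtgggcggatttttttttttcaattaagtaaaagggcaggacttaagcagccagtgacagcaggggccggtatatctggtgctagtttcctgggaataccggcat
Areg: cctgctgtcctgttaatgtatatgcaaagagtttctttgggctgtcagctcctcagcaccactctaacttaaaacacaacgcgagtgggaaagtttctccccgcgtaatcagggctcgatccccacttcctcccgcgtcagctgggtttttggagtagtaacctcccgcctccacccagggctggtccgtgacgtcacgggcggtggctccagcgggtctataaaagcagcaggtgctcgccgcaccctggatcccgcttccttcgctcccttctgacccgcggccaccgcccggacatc
Ccr8: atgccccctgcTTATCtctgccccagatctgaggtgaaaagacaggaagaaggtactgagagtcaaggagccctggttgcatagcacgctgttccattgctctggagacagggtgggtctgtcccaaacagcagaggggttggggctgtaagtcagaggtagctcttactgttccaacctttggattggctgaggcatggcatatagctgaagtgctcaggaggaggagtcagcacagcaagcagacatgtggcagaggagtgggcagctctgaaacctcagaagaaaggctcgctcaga
Il1rl1: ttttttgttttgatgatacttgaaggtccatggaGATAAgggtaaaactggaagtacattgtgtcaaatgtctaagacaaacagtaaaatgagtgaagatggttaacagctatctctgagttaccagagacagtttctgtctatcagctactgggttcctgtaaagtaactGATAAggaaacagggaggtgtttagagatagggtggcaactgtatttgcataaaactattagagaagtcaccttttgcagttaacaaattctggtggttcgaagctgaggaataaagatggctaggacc

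The letters GATAA occurred on either strand in 22.4% of the 76 higher promoters, 14.8% of the promoters tested and 22.9% of all 19760 listed. TGANTCA, the AP-1 core, occurred in 9.21%, 4.57% and 7.11%. Of the 97 lower promoters, 17.5% held GATAA and 12.4% the AP-1 core. AAAGGTCA, the site of NR4A receptors, was in none of the 76, in 0.747% of the promoters tested and in 1.29% of all listed. At so low a share 76 promoters could well hold none, and nothing is read from this. Each motif was searched on its own, so that matches may overlap. A match is a description of letters in a window and not a bound site. Ikzf2 is named only, as the promoter table used here holds no entry for it.

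IL-10- Treg cells of the tumor were then set against those of the cecum. Of 17352 genes, 249 were higher in the tumor (1.43%) and 52 lower (0.3%), with a median log2 ratio of -0.01 over all genes. The counting interval left out 0 at 198 and 52 of them. With 5 FPM added the counts were 20 and 2, without cells above 3 times the library median 390 and 97, and at equal depth of all labels 602 and 418. By the same rule and at their own depths, the other labels compared ranged, by the sum of both counts, from 20 and 5 genes in Innate-like T#1 to 1210 and 1435 in Th2 cells, with 71 and 40 in PD1+ CD8 and 183 and 114 in IL-10+ Treg cells. None of the 4 markers was called, nor were Itgb8, Areg and Pparg. The log2 ratios of tumor over cecum were -0.36 (-0.57 to -0.14) at Foxp3, -0.12 (-0.21 to -0.03) at Ikzf2, 0.11 (-0.08 to 0.29) at Il1rl1, 0.09 (-0.10 to 0.28) at Itgb8 and -0.05 (-0.34 to 0.24) at Areg. Pparg was at 0.47 (0.16 to 0.78).

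Upp1 (chr11:9118008-9136170), encoding uridine phosphorylase, had 16 cecal fragments, or 5.33 FPM, and 152 tumor fragments, or 26.2 FPM, a log2 ratio of 2.30 (1.55 to 3.14), spread over 111 tumor cells. IL-10+ Treg cells had 0.876 and 8.80 FPM, a log2 ratio of 3.33 (1.91 to 5.08) from 5 and 24 fragments. The non-Treg means were 2.60 and 3.07 FPM, and the highest tumor value elsewhere was 18.3 FPM, in Rorgt gdT cells. Th17 cells had 2.30 and 7.27 FPM and CD8aa cells 0.464 and 2.02 FPM, also past the fold, from 2 and 1 cecal fragments. Its promoter is shown with an AP-1 core (TGANTCA) in capitals (chr11:9117758-9118057, plus strand, GRCm38.p6) since it was past the fold in both Treg labels, chosen after the values were seen. In IL-10- Treg cells this promoter had 1.67 and 7.92 FPM.
Upp1: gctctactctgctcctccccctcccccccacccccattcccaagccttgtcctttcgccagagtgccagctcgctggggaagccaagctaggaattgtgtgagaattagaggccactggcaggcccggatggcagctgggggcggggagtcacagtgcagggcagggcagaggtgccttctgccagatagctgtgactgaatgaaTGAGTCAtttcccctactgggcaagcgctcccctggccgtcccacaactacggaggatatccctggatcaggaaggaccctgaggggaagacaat

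Lifr, encoding the receptor of leukemia inhibitory factor, went from 1 to 37 fragments, with a log2 ratio of 4.26 (1.69 to 9.60). Ccdc113 and Cdrt4 went from 1 fragment each to 35 and 30, and Slc13a1, a sulfate transporter gene, from 3 to 51 fragments. Emp2, a membrane protein gene, had 1.9995 and 11.4 FPM. Hba-a2, an alpha globin gene with a near-identical copy, had no cecal and 18 tumor fragments. Among genes with more fragments, chosen after the values were seen, Serpina3f, encoding a protease inhibitor, had 9.66 FPM from 29 fragments and 37.0 FPM from 215 fragments, against 33.8 and 42.9 FPM in IL-10+ Treg cells. Ankrd33b had 15.0 and 54.3 FPM, against 11.6 and 11.4 FPM in IL-10+ Treg cells and 98.5 FPM in tumor PD1+ CD4 cells.

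A few differences came from single cells. At Grm3, a glutamate receptor gene, 86 of 102 tumor fragments lay in 1 cell, and without it the tumor level was 2.76 FPM against 3.33 FPM for the cecum. Over 50% of the fragments came from 1 cell at 3 of the 198 higher genes (Grm3, Lrriq1 and Cldn5) and at 6 of the 52 lower genes. These 6 were Gm38510, Sis, Unc5d, Ccnjl, Nova1 and Gm5460. Among the remaining lower genes, Mmp2, encoding a matrix protease, had 24 cecal fragments, or 7.998 FPM, and 9 tumor fragments, or 1.55 FPM, but with windows within 1 kb of the gene ends its log2 ratio was 0.61. Tnfsf18, the gene of the GITR ligand, had 6 cecal fragments and no tumor fragment. Mlph, Vmn2r100 and Lect2 had 23, 8 and 15 cecal and 11, 2 and 7 tumor fragments.

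**Figure D5:**
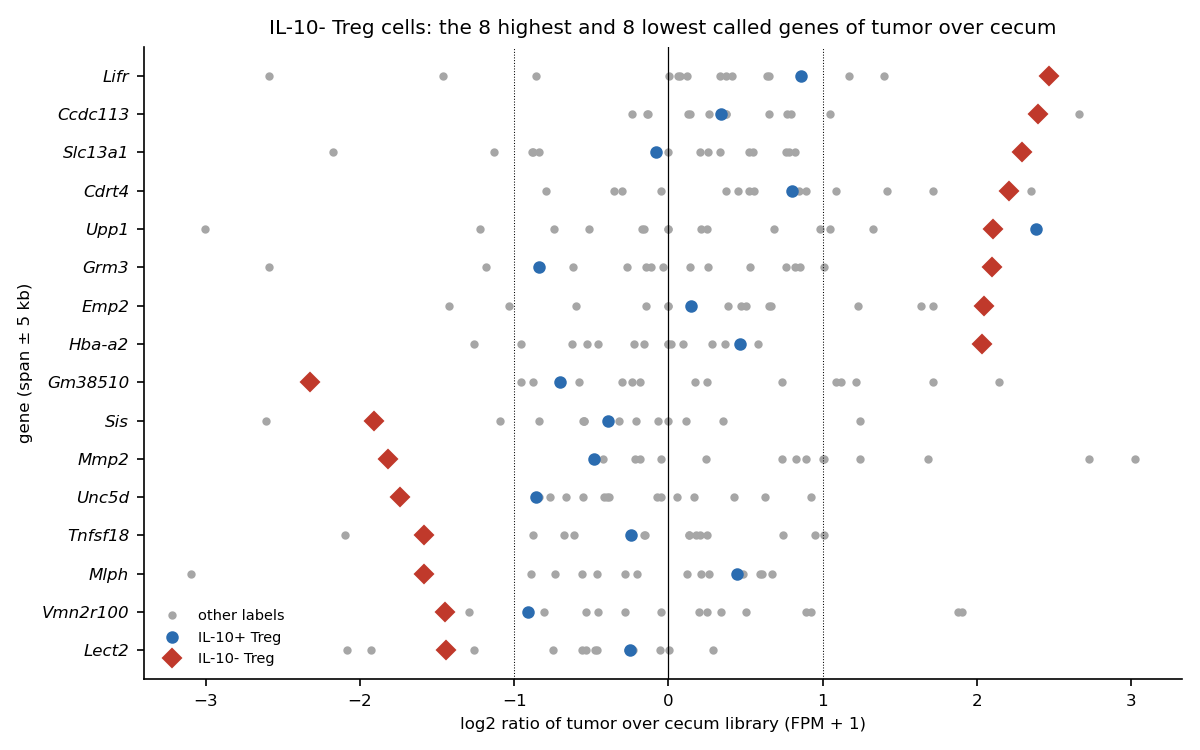
Log2 ratio of tumor over cecum, with 1 FPM added (x axis), for the 8 highest and 8 lowest called genes of IL-10- Treg cells (y axis), in IL-10- Treg (red diamonds), IL-10+ Treg (blue circles) and the other labels (grey; PD1+ CD4 cells left out), with dotted lines at the 2-fold limit. Upp1 lies past the limit in both Treg labels and a few others, and the Grm3 value rests on 1 tumor cell.

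Of the 198 genes, 10 were also higher than the non-Treg mean in both libraries, where 1.3% of all genes were. Nothing is read from this count, as both calls use the same tumor level. They were Kcna4, Gda, Adora1, Mybph, Mmp20, Nr5a2, Tff1, Gm11992, Zc3h12c and Prrx1. Gda, encoding guanine deaminase, had 7.998 and 25.8 FPM, and 2.45 and 11.4 FPM in IL-10+ Treg cells. Zc3h12c had 26.3 and 54.4 FPM, and 5.78 and 7.33 FPM in IL-10+ Treg cells. Over the 198 genes the median log2 ratio was 0.35 in IL-10+ Treg cells and from -0.05 to 0.30 in the 14 non-Treg labels. It was above 0 at 148 genes in IL-10+ Treg, 154 in Innate-like T#1 and 143 in Rorgt gdT cells. In the tumor library, 36 of the 198 genes lay at least 2-fold above the non-Treg mean in PD1+ CD4 cells (2.26% of all genes did). There were 23 in Rorgt gdT cells (3.22%), 20 in Th2 cells (3.13%) and 12 in IL-10+ Treg cells (1.31%). The other labels had 2 to 16, at 0.236% to 2.18% of all genes. The same count in IL-10- Treg cells is left out, as their tumor level chose the genes. Fragments shorter than a nucleosome made up 44.9% and 47.4% of those of IL-10- Treg cells, and their part in these differences was not tested. Over the gene lists, calls between the libraries were few. Ccr9, a gut homing receptor gene, had 16.0 and 33.4 FPM, and Ccl4 had 4.33 and 11.5 FPM. Il13 was lower in the tumor, with 29.7 and 14.3 FPM, and Ccl20 rested on 1 cecal fragment. No epithelial, B cell or myeloid gene was called between the libraries. Over all genes 1.43% were higher and 0.3% lower in the tumor, so lists this short would hold few or no calls. The summed epithelial level was 137 and 156 FPM, within the ranges of the other labels (81.3 to 203 and 103 to 213 FPM).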

How the data were processed

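Single nuclei of T cells sorted from tumor and adjacent cecum were profiled by joint RNA and ATAC sequencing. The authors made the deposited fragment counts with Cell Ranger ARC 2.0.0 on mm10, with duplicates collapsed, and named the cells by clustering RNA and carrying the labels over. How doublets were treated is not stated in the sources used here, and the RNA libraries were not used here. Labels were joined to barcodes within each library.

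Fragments were summed by label and scaled to 1000000 fragments of the label. Genes are RefSeq GRCm38.p6 spans with 5 kb on both sides, tested at 50 or more fragments over all labelled cells of each library, with a pseudocount of 1 FPM. The table holds no exons, so exonic and intronic tiles are not told apart. Tiles held 500 bases. Ratios carry exact conditional intervals, levels exact Poisson intervals and shares Clopper-Pearson intervals, all at 95% and without replicate error. A label without fragments was limited by 3 counts. Named genes are the 4 markers, list members and the 8 leading genes or tiles of each class, ranked by the smaller ratio of both libraries. The genes and lists were chosen with earlier results of these data known. On simulated counts for 17352 genes in the contrast with the non-Treg mean, 99% of 4-fold changes were recovered and 0 of 17152 unchanged genes called. These counts were drawn with counting error alone and with the same rate in every label for unchanged genes. No 2-fold change was planted. The simulation therefore checks the working of the rule and does not give the share of false calls in the real counts. Analyses used Python 3.11.15, numpy 2.4.6, pandas 2.3.3 and scipy 1.17.1. Some items are not reported here.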

Additional observations from a re-analysis of the deposited data

Results flagged for a closer look

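At the following genes the ratio of IL-10- Treg cells over another label lay past 2-fold in opposite directions in the cecum and the tumor, with intervals that left out 0, and the difference between the libraries was not tested. Against Th2 cells, Erbb4, a neuregulin receptor gene, had log2 ratios of 1.90 in the cecum (59 fragments against 3 in Th2 cells) and -1.34 in the tumor (94 against 18). Ptprf, a receptor phosphatase gene, had 1.57 (110 against 7) and -1.77 (171 against 44). Adgrl3, an adhesion receptor gene, had 2.89 (39 against 1) and -1.30 (59 against 11), and Atp8b3 had 1.21 (73 against 6) and -1.10 (117 against 19). At each of these 4 genes the Th2 value rested on a few fragments in the cecum.

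Against IL-10+ Treg cells, Pla2g2f, a secreted phospholipase gene, had log2 ratios of 1.67 in the cecum (10 fragments against 6) and -1.67 in the tumor (6 against 9), and 4921528I07Rik had 1.78 (9 against 5) and -1.54 (11 against 15).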

How the results depend on the processing

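Direction held in nearly all alternatives for the leading genes against the non-Treg mean and of tumor over cecum, which were picked for large ratios. Of their values, 539 stayed past the fold on the same side and 4 changed sign. A further 41 fell short of the fold or differed in sign between the libraries. The markers Ikzf2 and Il1rl1 were not in this tally. Of the counts, 75 stayed within 1.5 times and 49 did not. With windows within 1 kb of the gene ends, 1 marker, 125 higher and 130 lower genes and 11 lower list members were called, 53 genes were shared with IL-10+ Treg cells, 27 with Th2 cells, 19 with no label and 75 with tumor PD1+ CD4 cells, 120 genes were lower than in Th2 cells, Wfdc15b turned to -0.12 and Mmp2 to 0.61. Of these 125 genes, 77 were among the 225. With a pseudocount of 5 FPM the counts were 107 higher, 94 lower, 55 shared with IL-10+ Treg cells, 27 with Th2 cells, 20 with no label and 65 with PD1+ CD4 cells, 135 and 75 against Th2 cells and 20 and 2 for tumor over cecum. A minimum of 200 fragments gave 24 genes shared with no label, 275 and 121 against Th2 cells and 91 and 14 for tumor over cecum, and no minimum gave 90 lower in the tumor. Scaling to fragments near gene ends gave 440 and 101 for tumor over cecum. Leaving out cells above 3 times the library median gave 390 and 97, and Sis turned to 0.067. Among alternatives added after seeing the data, labels thinned to the smallest (median of 20 draws) gave 115 higher genes, 48 shared with IL-10+ Treg cells, 32 with Th2 cells, 18 with no label and 68 with PD1+ CD4 cells, 218 higher than in Th2 cells, and 602 and 418 for tumor over cecum. Without the 1 cell with most fragments over a gene, 1211 and 90 genes were called against Th2 cells and 30 lower in the tumor, and Sis turned to 0.19. At least 100 fragments per tile gave 185 higher tiles. A tile limit of log2 1 gave 2969 higher and 5577 lower tiles, with 54.6% shared with IL-10+ Treg and 24.1% with Th2 cells. Over tiles in place of genes the highest r was 0.67 in both libraries. With cells thinned to a lower depth, 34.2% and 33.4% of cells had an Ikzf2 fragment. The cause was not tested for any of these.

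No paired analysis was possible because each tissue has 1 library and no result comes from a test. Depth limits the values of labels with few cells, and a gene with no Th2 fragment is limited to 5.27 FPM in cecal and 6.83 FPM in tumor Th2 cells.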

Other observations

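The genes whose level over 16 labels was most like that of Ikzf2 were Ap3b1 (Pearson r = 0.86 and 0.90 in cecum and tumor), Myo1e (0.90 and 0.85), D130040H23Rik (0.81 and 0.84), Lyn (0.79 and 0.85) and Slc35f5 (0.78 and 0.83). The labels share a library, and none of these genes was called in IL-10- Treg cells.

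The Il10 gene itself had a fragment in 18.5% and 14.4% of IL-10- Treg cells thinned to 3000 fragments. IL-10+ Treg cells had 34.6% and 35.7%, PD1+ CD8 cells 19.1% and 20.2%, and Th2 cells 3.70% and 8.51%.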
